A study of Mus musculus with 60 samples.

Results

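Interferon-stimulated genes were examined in the lungs of mice that had inhaled superparamagnetic iron oxide (SPIO) nanoparticles. The list held 37 genes, and each was read from the probe set that carried its symbol and had the highest mean over the 60 arrays. A level could be read for 35 of the 37 among 18193 genes measured. Isg15 was left out because its probe set also carries the symbol of another gene, and Ifi44 had no probe set under its symbol in the annotation used here. All animals were male Balb/c mice, and the right diaphragmatic lung lobe was used. The exposed groups (SPIO) received the aerosol by nose for 4 h, with a total mass of 365 ug in the labels, and the sham groups (CON) received the humidified mixture of helium, oxygen and filtered air without particles for the same time. Mice were sacrificed at 0, 6, 24, 48, 96 or 168 h after exposure, 5 mice in each of the 12 groups, each on its own Affymetrix array, and the ages of the animals were not given. The mice of 96 h were from the time point whose animals also provided breathing measurements in a plethysmograph, and those of 168 h lived in metabolism cages on a liquid diet, in both arms, so these 2 times differed from the others by more than time. Whole lobes were profiled, so fewer cells of a type and less RNA per cell cannot be told apart in any value below.

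Interferons are cytokines released when cells sense viral or bacterial nucleic acids or other danger signals. Type I and type III interferons act through receptors and Janus kinases on transcription factors, among them STAT2, which joins IRF9 in the complex ISGF3, and this complex binds the interferon-stimulated response element (ISRE) in front of its target genes. Interferon-gamma acts through the gamma-activated sequence (GAS). The induced proteins sense nucleic acids, block viral replication, present antigen and shut the pathway down again, and in the lung they are made by epithelial cells, macrophages and many other cells.

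The lobes were checked first. Surfactant protein C (Sftpc) lay between 14.85 and 15.01 on the log2 scale in all 60 arrays and club cell secretory protein (Scgb1a1) between 14.97 and 15.11, the defining transcripts of alveolar type II and club cells. Markers of neighbouring tissue varied widely. The mean log2 level of a cardiac muscle list ran from 5.08 to 11.44 in the sham mice of 6 h. That of an adipose list ran from 4.48 to 8.85 in the sham mice of 0 h. At 24 h the cardiac list ran from 7.33 to 10.67 in sham and from 5.15 to 10.48 in exposed mice. The part of such tissue in the values below was not tested. A pair of arrays stood apart from the rest in albumin or sex-linked transcripts. Array 1 of the sham mice at 0 h had a log2 level of 14.02 for albumin and 11.94 for Xist, a transcript of female cells, against 5.27 to 11.35 and 5.16 to 6.02 in the others, although its label is male. The 24 h exposed array 3 averaged 5.6 over the Y-linked genes, against 6.77 to 7.97 in the others. The Y-linked mean of the former was 7.35, within the range of the others, and the Xist level of the latter was 5.38. The latter array also had the highest mean over the 35 interferon-stimulated genes of all arrays, 8.81 against 7.95 to 8.49, and it held the highest level among the 5 exposed mice of that time for 27 of the 35 genes. The counts at 0 and 24 h are therefore given with and without these arrays, as are the differences they move most.

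In the comparison of exposed with sham mice, many interferon-stimulated genes were higher in exposed mice at 24 h, and between 1 and 5 were lower at each time. At 24 h, 14 of the 35 genes (40%) were higher in exposed mice and 2 were lower (limma with Benjamini-Hochberg adjustment over all genes), where 20.3% of all genes were higher and 3.66% lower. The median difference at 24 h was 0.27 on the log2 scale over the 35 genes and 0.09 over all genes. The sham means of Ifih1, Mx1, Irf7, Usp18 and Dhx58, all among the 14, were at their lowest at 24 h. The mean level over the 35 genes was 8.21, 8.16, 8.16, 8.2 and 8.28 in the sham mice of 24 h and 8.37, 8.47, 8.81, 8.28 and 8.34 in the exposed mice. The exposed mice lay at or above the highest sham mouse, and array 3 lay above the rest. Without array 3, 12 genes were higher and 3 lower, and all 12 were among the 14, while 17.4% of all genes were higher and 3.04% lower and the median over the 35 genes was 0.22. The 12 differences that kept their call were 0.32 to 0.61 without that array, with Irf7 at 0.49 and Oas1a at 0.5, and Stat2 and Eif2ak2 remained lower at -0.48 and -0.56. The call was lost for Gbp2 and Rtp4 without that array, and Irf9 was then called lower. Averaging the probe sets of each gene left 8 higher and 1 lower at 24 h, and the 10 arrays of 24 h fitted alone gave 10 higher and none lower. In the fit over all arrays, 21 of the 35 genes had an unadjusted p under 0.05. No share of all genes is given for these counts, so they are not compared with the other genes.

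**Figure D1:**
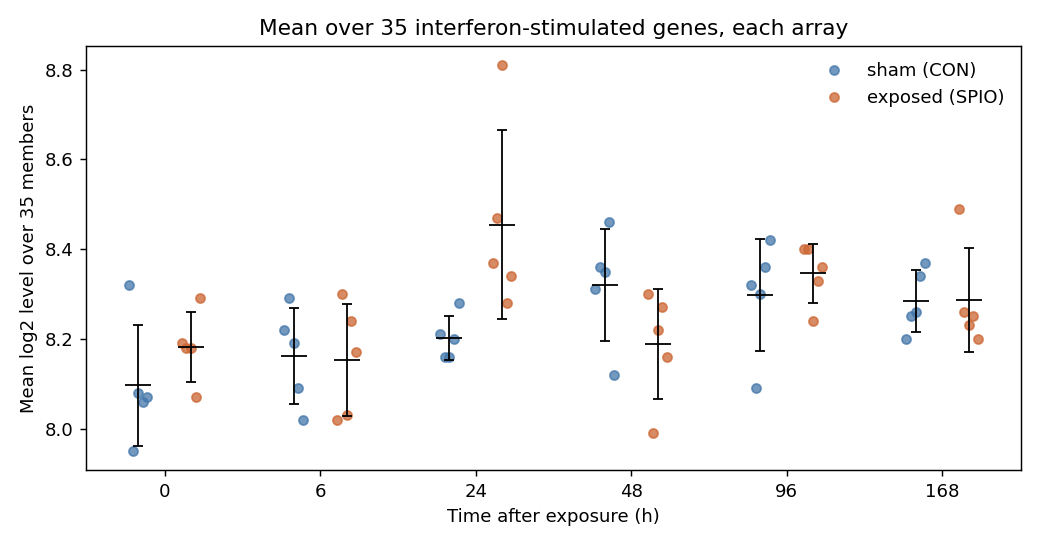
Mean log2 level over the 35 interferon-stimulated genes in each array (points), with the group mean and SD (black), against time after exposure in h, sham mice in blue and exposed mice in orange. The exposed mice of 24 h reach 8.28 to 8.81 against 8.16 to 8.28 in sham mice, and the sham means run from 8.1 at 0 h to 8.32 at 48 h.

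The other times gave few calls. At 0 h, straight after the exposure, 2 genes were higher and 1 lower, where 2.56% of all genes were higher and 1.11% lower. Without array 1 of the sham mice, 5 were higher and 1 lower at 0 h, Ifih1, Gbp2 and Zbp1 joining Ddx58 and Tap1, where 2.61% of all genes were higher and 1.69% lower. At 6 h none was higher and 1 was lower (0.759% and 0.407% of all genes), with 5 at an unadjusted p under 0.05. At 48 h none was higher and 5 were lower, where 10.7% of all genes were higher and 1.89% lower. Of those 5, Stat2 and Irf9 lay below the sham mice at all 6 times and Xaf1 at 5 times, and the others were Oasl1 and Gbp3. The median over the 35 genes at 48 h was -0.12 against 0.04 over all genes, and 23 of the 35 lay below 0. At 96 h none was higher and 2 were lower (0.522% and 0.885% of all genes), and at 168 h none was higher and 3 were lower (0.566% and 1.62%). Between 6 and 10 genes had an unadjusted p under 0.05 at 0, 48, 96 and 168 h, and the share of all genes under that p is not given for any time. The medians at 0, 6, 96 and 168 h were 0.12, 0.06, 0.13 and 0.08, against 0.03, 0.03, 0.06 and 0.01 over all genes. Of the 35 genes, 14 passed at no time, 17 at 1 time and 4 at several times, namely Ddx58, Stat2, Eif2ak2 and Tap1.

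**Figure D2:**
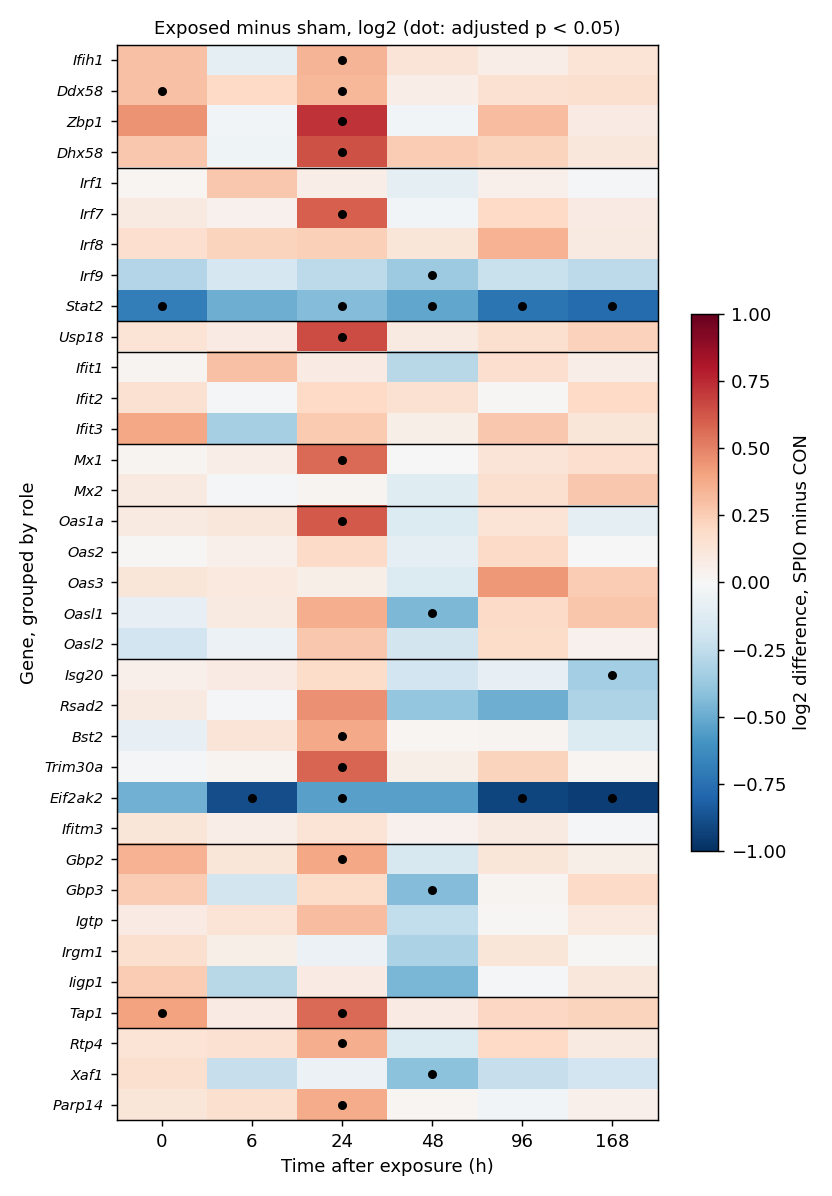
Difference between exposed and sham mice on the log2 scale (colour, blue lower and red higher) for the 35 genes in rows, grouped by role, and the 6 times in columns, with a dot where the adjusted p was under 0.05. The 24 h column holds 14 higher and 2 lower calls and 19 genes without a dot, and Stat2 and Eif2ak2 are blue at all 6 times.

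Markers of blood and immune cells were counted in the same way at 0, 24 and 48 h. At 24 h, 5 of 9 monocyte markers, 4 of 12 macrophage markers, 4 of 11 T and NK cell markers and 4 of 8 B cell markers were higher in exposed mice, and none of those was lower, where 20.3% of all genes were higher. Of 9 neutrophil markers 1 was higher and of 8 conventional dendritic cell markers 2 were, with list means of 7.5 to 9.27 and 6.25 to 6.63 in sham and 7.91 to 9.82 and 6.59 to 6.9 in exposed mice. The mean log2 level of the monocyte list ran from 7.92 to 8.55 in sham and from 8.69 to 9.01 in exposed mice, that of the macrophage list from 8.1 to 9.06 and from 8.49 to 8.97, that of the T and NK cell list from 6.36 to 6.83 and from 6.55 to 7.09, and that of the B cell list from 5.83 to 6.57 and from 6.24 to 7.48. Without array 3 the counts were 5, 3, 3 and 4, with 0 for neutrophils and 1 for conventional dendritic cells, where 17.4% of all genes were higher. None of 5 markers of plasmacytoid dendritic cells, the strongest producers of type I interferon, passed at 24 h, with a list mean of 6.24 to 6.44 in sham and 6.4 to 6.7 in exposed mice. At 0 h, 6 of 8 B cell markers, 3 of 11 T and NK cell markers and 4 of 9 monocyte markers were higher and 1 monocyte marker, Nr4a1, was lower, and the B cell list ran from 5.51 to 6.18 in sham and from 6.63 to 7.21 in exposed mice. Without array 1 of the sham mice the counts of higher markers at 0 h were 5, 3 and 3, beside 2.61% of all genes higher, and 2.56% with it. With all arrays, the conventional dendritic cell list held 1 higher and 1 lower marker of 8 at 0 h. The macrophage, neutrophil and plasmacytoid dendritic cell lists held no call at that time. At 48 h, 3 of 12 macrophage markers, 2 of 9 neutrophil markers, 1 of 9 monocyte markers and 1 of 8 conventional dendritic cell markers were higher (10.7% of all genes), and none of the 7 immune lists held a lower marker. The T and NK cell, B cell and plasmacytoid dendritic cell lists held no higher marker at 48 h. The macrophage list at 48 h ran from 8.42 to 8.7 in sham and from 8.71 to 9.04 in exposed mice, and the neutrophil list from 8.38 to 9.68 and from 9.23 to 10.04. The part of these cells in the levels of the interferon-stimulated genes was not tested.

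Among the sensors of nucleic acids, all 4 were higher at 24 h. Zbp1, which binds nucleic acids in the Z form, had log2 levels of 5.98, 6.26, 5.84, 5.58 and 5.92 in the sham mice and 6.19, 6.59, 7.41, 6.48 and 6.54 in the exposed mice. The difference was 0.72 ± 0.16 (SE, adjusted p = 0.0011), and the lowest exposed mouse lay within the sham range. Without array 3 it was 0.53 ± 0.16 (SE, adjusted p = 0.013), and the second probe set of Zbp1, with an overall mean of 5.68 against 6.22, differed by 0.26 ± 0.16 (SE, adjusted p = 0.3 over all probe sets). Dhx58, the regulator of the RIG-I-like receptors also called LGP2, had log2 levels of 5.89, 5.6, 5.81, 5.62 and 6.14 in the sham mice and 6.34, 6.82, 6.56, 6.3 and 6.23 in the exposed mice. Every exposed mouse lay above every sham mouse, and the difference was 0.64 ± 0.12 (SE, adjusted p = 0.00023). Averaged over its 3 probe sets, Dhx58 differed by 0.16 and was not called (adjusted p = 0.15), the other 2 having overall mean levels of 3.47 and 3.23. Ifih1 (MDA5) and Ddx58 (RIG-I), receptors for viral RNA in the cytosol, differed at 24 h by 0.34 ± 0.09 (SE, adjusted p = 0.0054) and 0.33 ± 0.08 (SE, adjusted p = 0.0024), and neither overlapped between the groups.

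By the probe set used, Ddx58 was also higher straight after exposure. At 0 h it had log2 levels of 8.73, 8.39, 8.24, 8.38 and 8.4 in the sham mice and 8.76, 8.59, 8.76, 8.65 and 8.82 in the exposed mice. The difference was 0.29 ± 0.08 (SE, adjusted p = 0.032). The highest sham mouse was array 1, and without it the groups no longer overlapped and the difference was 0.36 ± 0.08 (SE, adjusted p = 0.005). The call at 0 h was lost when any of sham arrays 2, 3, 4 and 5 or exposed arrays 1, 3 and 5 was left out, with adjusted p of 0.061 to 0.12, and in the arrays of 0 h alone (adjusted p = 0.17). At the later times Ddx58 lay above the sham mice by 0.07 to 0.16 from 48 h on, without a call. The other probe sets of Ddx58, with overall means of 7.82 and 4.74 against 8.71, were not called at 0 or 24 h. The brighter of them differed by -0.02 at 0 h and 0.11 at 24 h (adjusted p = 0.96 and 0.58 over all probe sets). The dimmer differed by 0.37 at 0 h and -0.23 at 24 h (adjusted p = 0.16 and 0.31).

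The transcription factors went both ways. Stat2, the ISGF3 subunit specific to type I and III signalling, was lower in exposed mice at 5 of the 6 times, and its largest difference was at 168 h. At 168 h it had log2 levels of 7, 6.86, 6.86, 6.79 and 6.55 in the sham mice and 5.99, 6.5, 5.84, 6.01 and 5.88 in the exposed mice. All exposed mice lay below all sham mice, at -0.77 ± 0.14 (SE, adjusted p = 0.001), a level 0.59 times that of the sham mice. At 0 h it had log2 levels of 7.23, 6.84, 6.65, 6.97 and 6.82 in the sham mice and 6.49, 6.22, 6.04, 5.96 and 6.34 in the exposed mice. The groups did not overlap at 0 h either, and the difference was -0.69 ± 0.14 (SE, adjusted p = 0.0032). Without array 1 of the sham mice it was -0.61 ± 0.15 (SE, adjusted p = 0.0099).

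At 6 h Stat2 had log2 levels of 6.51, 6.44, 6.59, 6.85 and 6.65 in the sham mice and 5.56, 6.07, 6.05, 6.47 and 6.42 in the exposed mice. A single exposed mouse overlapped with the sham range, and the difference of -0.49 ± 0.14 (SE, adjusted p = 0.064) missed the threshold, passing it in 5 of the alternatives run, among them the fit to all probe sets (adjusted p = 0.046). At 24 h it differed by -0.43 ± 0.14 (SE, adjusted p = 0.023) with overlapping groups, the smallest of its differences. At 48 h Stat2 had log2 levels of 6.53, 7.02, 6.43, 6.84 and 6.47 in the sham mice and 6.04, 6.08, 6.36, 6.15 and 6.04 in the exposed mice. At 96 h it had log2 levels of 7, 6.74, 6.68, 6.98 and 7.21 in the sham mice and 6.41, 6.11, 6.24, 6.05 and 6.13 in the exposed mice. The groups did not overlap at 48 or 96 h, with differences of -0.52 ± 0.14 (SE, adjusted p = 0.01) and -0.73 ± 0.14 (SE, adjusted p = 0.0021). The second probe set of Stat2 differed by -0.47, -0.25, -0.3, -0.34, -0.87 and -0.19 from 0 to 168 h, below 0 at all times and past the threshold at 96 h (adjusted p = 0.00013 over all probe sets).

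Irf9, the DNA-binding partner of STAT2 in ISGF3, lay below the sham mice at all 6 times and passed at 48 h. At 48 h it had log2 levels of 8.65, 8.89, 8.7, 9.02 and 8.57 in the sham mice and 8.37, 8.03, 8.61, 8.56 and 8.44 in the exposed mice. The groups overlapped by 1 mouse, and the difference was -0.36 ± 0.11 (SE, adjusted p = 0.015). Its sham means from 0 to 168 h were 8.68, 8.44, 8.83, 8.76, 8.62 and 8.67, and its exposed means were 8.38, 8.28, 8.57, 8.4, 8.41 and 8.41. The call at 48 h was lost without sham array 4 (adjusted p = 0.051) or exposed array 2 (adjusted p = 0.067), and in the arrays of 48 h alone (adjusted p = 0.1). The exposed mean of Irf9 was highest at 24 h, as was the sham mean.

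**Figure D3:**
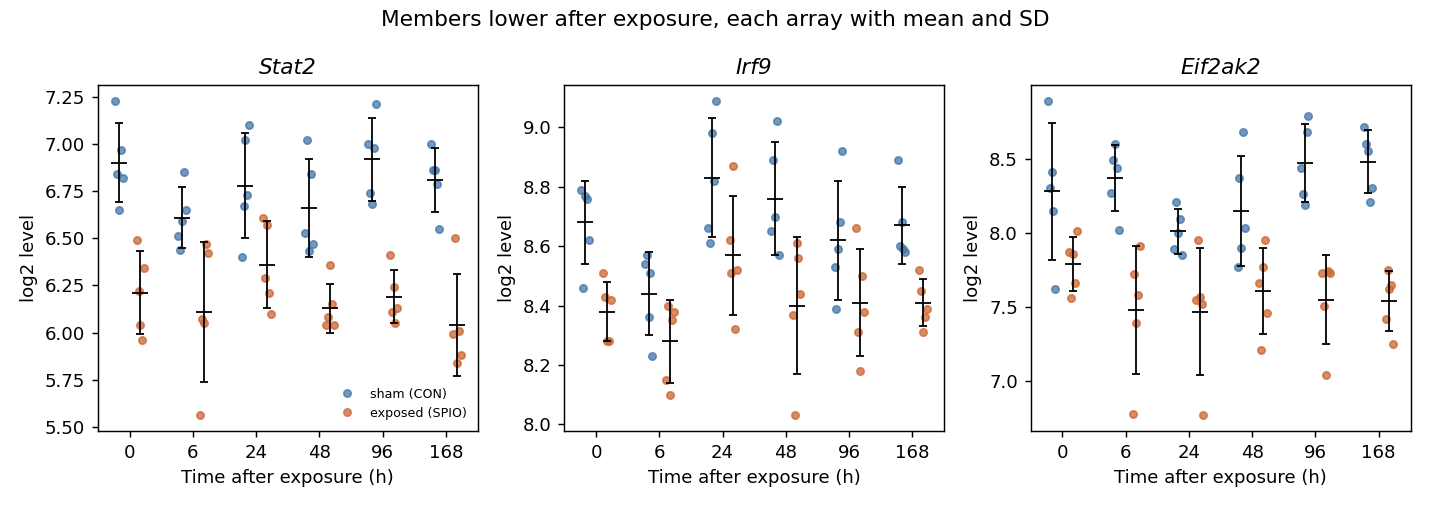
Log2 level of Stat2, Irf9 and Eif2ak2 in each array against time after exposure in h, sham mice in blue and exposed mice in orange, with group mean and SD in black. Exposed means lie below sham means at all 6 times for all 3 genes.

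Irf7, the factor that amplifies interferon production, was higher at 24 h. It had log2 levels of 6.77, 6.27, 6, 6.66 and 7.19 in the sham mice and 7, 7.33, 7.6, 6.82 and 7.12 in the exposed mice. The sham levels were spread more widely than at other times, sham array 5 overlapped with the exposed mice, and the difference was 0.6 ± 0.14 (SE, adjusted p = 0.0018). The sham means of Irf7 from 0 to 168 h were 6.85, 6.65, 6.58, 7, 6.9 and 6.99, and the exposed means 6.95, 6.69, 7.17, 6.97, 7.09 and 7.07. At the other times Irf7 differed by -0.03 to 0.2, without a call. Irf8, a factor of myeloid cells and B cells, was not called at any time and differed most at 96 h, where it had log2 levels of 8.48, 8.32, 8.59, 8.64 and 8.64 in the sham mice and 9.05, 8.9, 9.06, 8.64 and 8.77 in the exposed mice. The difference was 0.35 ± 0.15 (SE, adjusted p = 0.27), with the lowest exposed mouse level with the highest sham mice. A second probe set of Irf8 differed by -0.43 to -0.08, so its direction depends on the probe set. Irf1, the factor induced most directly by interferon-gamma, differed by -0.1 to 0.27 and was not called.

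Usp18, the protease that removes ISG15 from proteins and blocks the type I receptor, had the smallest p of the list at 24 h. It had log2 levels of 7.82, 8.08, 7.68, 7.7 and 7.6 in the sham mice and 8.24, 8.57, 8.71, 8.4 and 8.24 in the exposed mice. Every exposed mouse lay above every sham mouse, and the difference was 0.65 ± 0.11 (SE, adjusted p = 5.1e-05), a fold of 1.57. Without array 3 it was 0.59 ± 0.12 (SE, adjusted p = 0.00047). The exposed mice lay above the sham mice by 0.08 to 0.23 at the other times without a call.

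The IFIT genes, whose products bind viral RNA and are among the strongest responders to type I interferon, were not called at any time. Ifit1 had sham means of 8.52, 8.16, 8.91, 8.76, 8.55 and 8.56 from 0 to 168 h and exposed means of 8.55, 8.45, 8.98, 8.48, 8.72 and 8.63. At 24 h, where 14 other genes were higher, the difference of Ifit1 was 0.08 ± 0.18 (SE, adjusted p = 0.81), with a 95% interval from -0.28 to 0.43, and Ifit2 and Ifit3 differed by 0.2 ± 0.11 (SE, adjusted p = 0.2) and 0.26 ± 0.17 (SE, adjusted p = 0.29). At 6 h Ifit1 had log2 levels of 8.24, 8.35, 7.93, 7.97 and 8.31 in the sham mice and 8.29, 8.53, 8.15, 8.65 and 8.63 in the exposed mice. Ifit3 at 6 h had log2 levels of 9.84, 9.85, 9.8, 9.66 and 9.29 in the sham mice and 8.96, 9.6, 9.3, 9.42 and 9.48 in the exposed mice. These 2 genes of the same family lay in opposite directions at 6 h, at 0.29 ± 0.18 (SE, adjusted p = 0.57) and -0.33 ± 0.17 (SE, adjusted p = 0.44), and the arms overlapped for both. Ifit2 differed by -0.01 to 0.2 over the 6 times.

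Of the MX genes, Mx1 was called higher at 24 h and Mx2 was not called. Many inbred mouse strains carry a defective Mx1 allele. Mx1 had log2 levels of 3.89, 3.55, 3.77, 3.6 and 3.99 in the sham mice and 3.88, 4.51, 5, 4.26 and 3.97 in the exposed mice. Its overall mean of 4 was the lowest of the 35 genes, the groups overlapped, and the difference of 0.57 ± 0.14 (SE, adjusted p = 0.0019) became 0.4 ± 0.13 (SE, adjusted p = 0.021) without array 3. Mx2 differed by 0.03 ± 0.11 (SE, adjusted p = 0.9) at 24 h.

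In the OAS family, whose enzymes make the messenger that activates RNase L, Oas1a was higher at 24 h. It had log2 levels of 7.73, 7.75, 7.47, 7.5 and 7.94 in the sham mice and 8.14, 8.4, 8.71, 7.89 and 8.27 in the exposed mice. The lowest exposed mouse lay within the sham range, and the difference was 0.61 ± 0.13 (SE, adjusted p = 0.00047). Its sham means from 0 to 168 h were 7.66, 7.65, 7.68, 8.18, 7.98 and 8.13, and its exposed means 7.75, 7.75, 8.28, 8.03, 8.13 and 8.03. The exposed mice were thus at their highest at 24 h and the sham mice at 48 h. The effect of exposure on Oas1a differed between times (moderated F test over the 6 times, adjusted p = 0.032), a call lost without sham array 3 or 4 or exposed array 2 or 3 of 24 h, with adjusted p up to 0.085.

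Oasl1, a relative of the OAS enzymes that holds back the translation of Irf7, was lower at 48 h, with log2 levels of 6.4, 6.84, 6.86, 7.19 and 6.79 in the sham mice and 6.6, 6.26, 6.09, 6.4 and 6.47 in the exposed mice. Sham array 1 lay within the exposed range, and the difference was -0.45 ± 0.15 (SE, adjusted p = 0.038). This call was not held in the fit to all probe sets (adjusted p = 0.054), with array weights (0.14), in the arrays of 48 h alone (0.074), in the methods' test (0.16), or without any of sham and exposed arrays 2, 3, 4 and 5 (up to 0.11). Oas3 was closest to a call at 96 h, with log2 levels of 4.57, 4.85, 4.74, 4.4 and 5.04 in the sham mice and 4.93, 5.07, 4.98, 5.34 and 5.44 in the exposed mice. Sham array 5 lay above exposed arrays 1 and 3, the other sham mice lay below all exposed mice, and the difference was 0.43 ± 0.13 (SE, adjusted p = 0.073), which passed in 5 alternatives and without sham array 5 or exposed array 1, at adjusted p of 0.019 to 0.048. Oas2 and Oasl2 were not called and differed by -0.19 to 0.27.

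Among the other antiviral effectors, Eif2ak2 fell the furthest. Eif2ak2 encodes PKR, the kinase that stops translation when it meets double-stranded RNA, and it was lower at 6, 24, 96 and 168 h. At 6 h it had log2 levels of 8.27, 8.49, 8.6, 8.44 and 8.02 in the sham mice and 6.78, 7.72, 7.39, 7.58 and 7.91 in the exposed mice. No exposed mouse reached the sham range, and the difference was -0.89 ± 0.19 (SE, adjusted p = 0.0056), a call lost in the arrays of 6 h alone (adjusted p = 0.058). At 96 h it had log2 levels of 8.44, 8.26, 8.19, 8.68 and 8.79 in the sham mice and 7.73, 7.51, 7.04, 7.74 and 7.73 in the exposed mice. At 168 h it had log2 levels of 8.71, 8.6, 8.55, 8.21 and 8.3 in the sham mice and 7.42, 7.75, 7.62, 7.65 and 7.25 in the exposed mice. At both times all exposed mice lay below all sham mice, with differences of -0.92 ± 0.19 (SE, adjusted p = 0.004) and -0.94 ± 0.19 (SE, adjusted p = 0.003), the latter being 0.52 times the sham level. At 24 h it differed by -0.54 ± 0.19 (SE, adjusted p = 0.033), and at 0 and 48 h by -0.48 ± 0.19 (SE, adjusted p = 0.15) and -0.54 ± 0.19 (SE, adjusted p = 0.051).

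The fall of Eif2ak2 rests on the probe set used. The other 2 probe sets of this gene have lower overall means, 7.12 and 6.2 against 7.93, and differed by -0.24 to 0.26 and by -0.19 to 0.08 over the times with no call over all probe sets. The 95% interval of the first of them at 168 h covers the difference from -0.4 to 0.01, which does not reach the -0.94 of the probe set used. Trim30a, a tripartite motif protein, showed the same kind of disagreement. At 24 h the probe set used had log2 levels of 8.05, 7.96, 7.77, 8.08 and 8.13 in the sham mice and 8.56, 8.32, 8.84, 8.29 and 8.9 in the exposed mice. The groups did not overlap at 0.58 ± 0.13 (SE, adjusted p = 0.00067), while the second probe set differed by -0.13 at 24 h, and it was lower at 6 h (-0.56 ± 0.15, SE, adjusted p = 0.035) and 168 h (-0.83 ± 0.15, SE, adjusted p = 0.00031 over all probe sets). Of the 35 genes, 21 had 1 probe set and 14 had more, 55 probe sets in all.

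**Figure D4:**
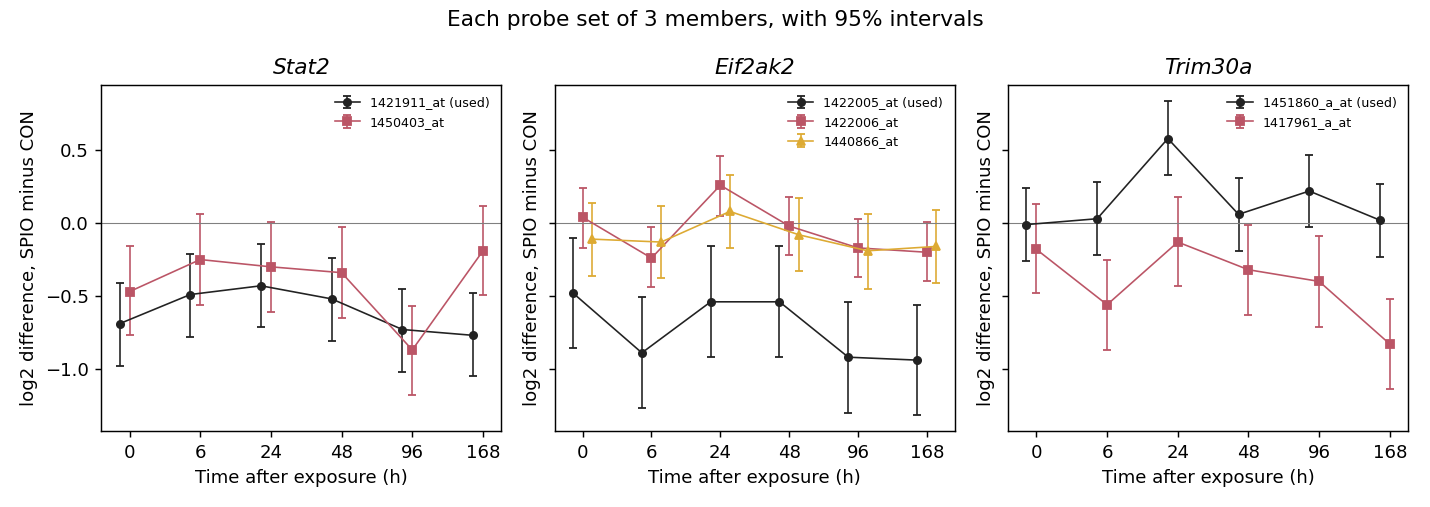
Difference between exposed and sham mice on the log2 scale for each probe set of Stat2, Eif2ak2 and Trim30a against time after exposure in h, with 95% intervals, the probe set used in black. Both probe sets of Stat2 lie below 0, while the other probe sets of Eif2ak2 lie near 0 and the second of Trim30a lies below it.

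Bst2 (tetherin), which holds budding virus at the cell surface, was higher at 24 h by 0.38 ± 0.11 (SE, adjusted p = 0.0081), with no overlap between groups. Isg20, a nuclease that degrades viral RNA, was lower at 168 h, with log2 levels of 10.33, 10.03, 10.11, 10.1 and 10.09 in the sham mice and 9.76, 9.93, 9.8, 9.9 and 9.55 in the exposed mice. The groups did not overlap, and the difference was -0.34 ± 0.08 (SE, adjusted p = 0.018). The effect of exposure on Isg20 also differed between times (moderated F test, adjusted p = 0.017), being 0.18 at 24 h and -0.34 at 168 h, and it stayed past the threshold when each array was left out in turn (adjusted p up to 0.042). The call at 168 h itself was lost without sham array 1 (adjusted p = 0.11), exposed array 1 (0.063) or exposed array 5 (0.11), and in the arrays of that time alone (0.11). Rsad2 (viperin), an enzyme that makes a chain-terminating nucleotide, was not called and was farthest from the sham mice at 96 h, with log2 levels of 9.89, 9.92, 9.66, 9.64 and 9.63 in the sham mice and 9.12, 9.53, 9.08, 8.92 and 9.61 in the exposed mice. No exposed mouse reached the lowest sham mouse, at -0.49 ± 0.22 (SE, adjusted p = 0.28), and another probe set of Rsad2 passed at that time (-0.82 ± 0.2, SE, adjusted p = 0.0089 over all probe sets). At 24 h Rsad2 lay in the other direction, at 0.46 ± 0.22 (SE, adjusted p = 0.12). Ifitm3, which blocks the fusion of viruses with endosomes, differed by -0.01 to 0.14 and was not called.

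The GTPases induced by interferon-gamma, which attack the vacuoles of intracellular pathogens, had 1 higher call at 24 h and 1 lower call at 48 h. Gbp2 was higher at 24 h by 0.39 ± 0.11 (SE, adjusted p = 0.0097), with exposed array 3 far above the rest, and by 0.23 ± 0.1 (SE, adjusted p = 0.1) without it. Gbp3 at 48 h had log2 levels of 9.13, 9.14, 9.45, 9.15 and 8.7 in the sham mice and 8.92, 8.49, 8.84, 8.91 and 8.27 in the exposed mice. Sham array 5 lay within the exposed range, and the difference was -0.43 ± 0.15 (SE, adjusted p = 0.041), a call lost over all probe sets, in the arrays of that time alone, in the methods' test, and when any of 6 arrays was left out (adjusted p 0.055 to 0.17, without sham array 1, 2, 3 or 4 or exposed array 2 or 5). All 5 GTPases lay below the sham mice at 48 h, by 0.16 to 0.46, with Irgm1 at -0.32 ± 0.11 (SE, adjusted p = 0.051) and Iigp1 at -0.46 ± 0.23 (SE, adjusted p = 0.19). At 0 h all 5 lay above them, by 0.08 to 0.35, without a call. Igtp, Irgm1 and Iigp1 were not called at any time.

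Tap1, the peptide transporter that loads MHC class I molecules, was higher at 0 and 24 h. At 0 h it had log2 levels of 7.66, 7.51, 7.42, 7.2 and 7.42 in the sham mice and 7.93, 7.8, 7.86, 7.67 and 7.95 in the exposed mice. At 24 h it had log2 levels of 7.65, 7.49, 7.37, 7.43 and 7.59 in the sham mice and 7.86, 8.1, 8.66, 7.88 and 7.86 in the exposed mice. The groups did not overlap at either time, with differences of 0.4 ± 0.11 (SE, adjusted p = 0.033) and 0.57 ± 0.11 (SE, adjusted p = 0.00028). Without the arrays that stood apart the differences were 0.46 ± 0.12 (SE, adjusted p = 0.017) at 0 h and 0.42 ± 0.1 (SE, adjusted p = 0.0034) at 24 h. Averaged with its 3 dimmer probe sets, whose overall means are 2.83 to 4.59, Tap1 was called at neither time (0.13 and 0.1, adjusted p = 0.2 at both). The call at 0 h was lost when any of sham arrays 3, 4 and 5 or exposed arrays 1, 3 and 5 was left out (adjusted p 0.062 to 0.12), and in the arrays of 0 h alone (adjusted p = 0.071).

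Of the remaining genes, Parp14, an ADP-ribosyltransferase, and Rtp4 were higher at 24 h, by 0.37 ± 0.09 (SE, adjusted p = 0.0026) and 0.36 ± 0.13 (SE, adjusted p = 0.033), the latter becoming 0.24 ± 0.13 (SE, adjusted p = 0.17) without array 3. Xaf1, a pro-apoptotic partner of the inhibitor XIAP, was lower at 48 h, with log2 levels of 9.84, 9.89, 9.84, 9.89 and 9.7 in the sham mice and 9.41, 9.12, 9.58, 9.54 and 9.48 in the exposed mice. All exposed mice lay below all sham mice, and the difference was -0.41 ± 0.11 (SE, adjusted p = 0.01).

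**Figure D5:**
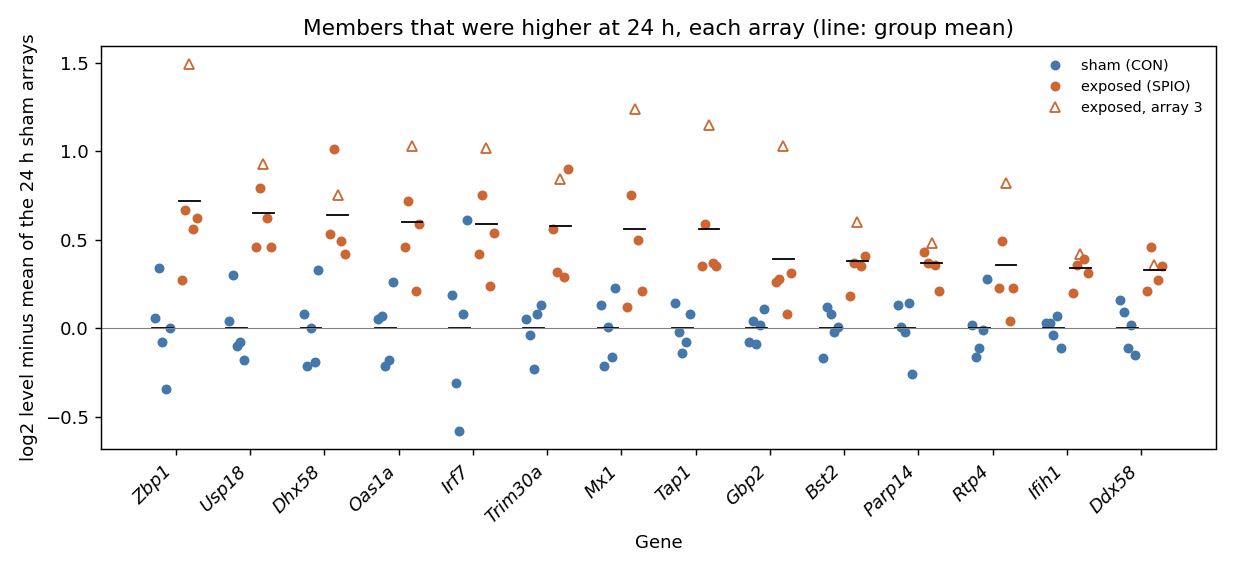
Log2 level in each array of 24 h minus the mean of the 5 sham mice, for the 14 genes called higher at that time, sham mice in blue, exposed mice in orange and exposed array 3 as an open triangle, with lines at the group means. The mean differences run from 0.72 for Zbp1 to 0.33 for Ddx58, and array 3 is the highest exposed mouse for most of the genes.

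The levels also moved with time in mice that had inhaled no particles. Of the 35 genes, 24 differed among the 6 sham groups (moderated F test, adjusted p under 0.05), where 41% of all genes did. Among the sham groups, 12 genes had their lowest mean at 0 h, 11 at 6 h and 9 at 24 h, and 13 had their highest at 48 h and 11 at 96 h. Usp18, called higher at 24 h, had its lowest sham mean there, 7.78, and exposed means of 8.43 at 24 h and 8.44 at 96 h. Dhx58 had exposed means of 6.45 at 24 h and 6.48 at 96 h, and Ifih1 of 9.78 at 24 h and 9.83 at 168 h. For Mx1 and Irf7 the exposed mean was highest at 24 h, at 4.32 and 7.17. The part of the low sham levels in these 24 h differences was not tested. Zbp1 in sham mice rose from 5.57 at 0 h to 6.45 at 48 h (adjusted p = 0.00032 over the sham times), a span larger than its difference at 24 h. Among the exposed groups, 13 genes differed between times, where 7.13% of all genes did, and 8 differed without exposed array 1 of 0 h or without exposed array 3 of 24 h. Of the 35 exposed means, 24 were highest at 24 h and 6 at 96 h, and without exposed array 3 of 24 h these counts were 15 and 12. The effect of exposure itself differed between times for 2 of the 35 genes, Isg20 and Oas1a, where 8.77% of all genes passed. Leaving out each array in turn gave 1 to 7 genes, the 7 without array 1 of the 0 h sham mice, and 1 without sham array 3 or exposed array 3 of 24 h.

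The mean of the 6 differences of each gene was tested as well, a comparison added after the results by time were seen. It was above 0 and past the threshold for 16 of the 35 genes and below 0 for 4, where 24.1% of all genes were higher and 6.17% lower. The 4 lower genes, by the probe sets used, were Eif2ak2 (-0.72 ± 0.08, SE, adjusted p = 3.7e-10), Stat2 (-0.61 ± 0.06, SE, adjusted p = 1.2e-11), Irf9 (-0.26 ± 0.04, SE, adjusted p = 4.5e-06) and Xaf1 (-0.16 ± 0.04, SE, adjusted p = 0.0051). The other probe sets of Eif2ak2 were not called at any time. The largest mean differences above 0 were those of Tap1 (0.26 ± 0.05, SE, adjusted p = 1.8e-05) and Zbp1 (0.25 ± 0.07, SE, adjusted p = 0.0033). Ddx58, by the probe set used, had the smallest p among the 16 higher genes (0.2 ± 0.03, SE, adjusted p = 5.2e-06). Ifit1 had a mean difference of 0.06 ± 0.07 (SE, adjusted p = 0.58).

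The parts of the pathway upstream of these genes were looked at from further lists. Of 10 interferon genes measured, 1 was called with all arrays, at 24 h, where 20.3% of all genes were higher. It was Ifng, the gene of interferon-gamma, at 0.3 ± 0.1 (SE, adjusted p = 0.024) and sham and exposed means of 3.09 and 3.38. The list mean at 24 h was 4.01 to 4.31 in sham and 3.99 to 4.22 in exposed mice, and the lowest array median was 5.53. Background is not marked, so whether these genes rose above it cannot be told. The list medians of the difference ran from -0.1 to 0.08. Of 6 receptor genes, 2 were higher at 24 and 48 h, where 20.3% and 10.7% of all genes were. They were Ifnlr1 of the type III receptor and Ifngr1 of the interferon-gamma receptor. Ifnlr1 was higher by 0.29 ± 0.09 (SE, adjusted p = 0.012) and 0.35 ± 0.09 (SE, adjusted p = 0.0051) and Ifngr1 by 0.2 ± 0.07 (SE, adjusted p = 0.029) and 0.22 ± 0.07 (SE, adjusted p = 0.028). Without array 3 the differences at 24 h were 0.35 for Ifng (adjusted p = 0.012), 0.32 for Ifnlr1 (adjusted p = 0.0095) and 0.15 for Ifngr1, which was then not called (adjusted p = 0.12). Ifnar1 of the type I receptor was then called higher (0.23, adjusted p = 0.036), and the interferon gene Ifna9 was called lower (-0.41, adjusted p = 0.047). Without array 3, 1 of 10 interferon genes and 2 of 6 receptor genes were higher, where 17.4% of all genes were. No receptor gene was lower at any time.

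Of 19 genes of interferon induction and signalling, 3, 1, 8, 3, 0 and 0 were higher from 0 to 168 h, and 1 was lower, the adaptor Mavs at 24 h (-0.48 ± 0.16 (SE, adjusted p = 0.021)). Of all genes, 2.56%, 0.759%, 20.3% and 10.7% were higher at the first 4 times, and without array 3, 7 of the 19 were higher at 24 h, where 17.4% of all genes were. Irf3, the factor that turns on interferon genes after nucleic acid sensing, was higher at the first 4 times. It differed by 0.23 ± 0.06 (SE, adjusted p = 0.015) at 0 h, 0.26 ± 0.06 (SE, adjusted p = 0.011) at 6 h, 0.33 ± 0.06 (SE, adjusted p = 8.6e-05) at 24 h and 0.32 ± 0.06 (SE, adjusted p = 0.00022) at 48 h. Irf5, a related factor, was higher at 24 h by 0.62 ± 0.12 (SE, adjusted p = 0.00016), and Ikbke, a kinase that activates these factors, was higher at 0 and 24 h by 0.33 ± 0.1 (SE, adjusted p = 0.044) and 0.45 ± 0.1 (SE, adjusted p = 0.00081). Ptpn2, a phosphatase that acts on Janus kinases and STAT proteins, was higher at 0 h by 0.26 ± 0.06 (SE, adjusted p = 0.0088), and at 48 h Pias1, an inhibitor of STAT signalling, and Jak2 were higher by 0.33 ± 0.08 (SE, adjusted p = 0.0031) and 0.23 ± 0.07 (SE, adjusted p = 0.015). Without array 3, the 24 h differences of Irf3, Irf5, Ikbke and Mavs were 0.34, 0.65, 0.43 and -0.47, all called. None of the 3 chemokines induced by interferon-gamma that were measured passed at any time, with list medians of -0.36 to 0.6.

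Of a further 45 interferon-induced genes, 21 were higher and 1 lower at 24 h, and at most 3 higher and 2 lower at any other time. Among all genes the share called higher was 20.3% at 24 h and 10.7% at 48 h. Leaving out array 3 left 13 of the 45 higher at 24 h, beside 17.4% of all genes. The median of this list at 24 h was 0.29. The smallest p at 24 h belonged to Psmb10, a subunit of the immunoproteasome, Parp9 and Epsti1, at 0.56 ± 0.1 (SE, adjusted p = 4.8e-05), 0.55 ± 0.1 (SE, adjusted p = 7.3e-05) and 0.96 ± 0.17 (SE, adjusted p = 8.1e-05). Without array 3 these were 0.5, 0.49 and 0.9, all called. Psmb10 was also higher at 0 h, by 0.5 ± 0.1 (SE, adjusted p = 0.0013), as was Nmi, a partner of STAT proteins, by 0.32 ± 0.08 (SE, adjusted p = 0.0097). At 6 h the nuclear body protein Sp100 was lower by -0.54 ± 0.12 (SE, adjusted p = 0.0096). At 48 h Ifi204, a DNA sensor, was lower by -1 ± 0.2 (SE, adjusted p = 0.00065), and the nucleotide phosphohydrolase Samhd1 and the chaperone Daxx were higher by 0.45 ± 0.12 (SE, adjusted p = 0.011) and 0.31 ± 0.09 (SE, adjusted p = 0.017). Slfn5 was lower at 24, 96 and 168 h, by -0.58 ± 0.17 (SE, adjusted p = 0.01), -0.64 ± 0.17 (SE, adjusted p = 0.039) and -0.65 ± 0.17 (SE, adjusted p = 0.027).

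The 35 genes moved together only in part from mouse to mouse. After the group means were taken out, the median Pearson correlation over the 595 pairs of genes across the 60 arrays was 0.3, with a range from -0.44 to 0.84, and 0.27 when exposed array 3 of 24 h was left out. These points share their arrays and normalization, so the values are a description. Rtp4 and Gbp2 were closest to the rest, with median correlations of 0.52 and 0.47 to the other genes, and Mx2, Oas3 and Rsad2 were farthest, at 0.07, 0.08 and 0.1. Stat2 and Eif2ak2 had 0.16 and 0.22, and Irf9 had 0.38.

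The promoters of genes called higher at 24 h and of the other genes were read for the ISRE and the GAS. RefSeq promoters of the mouse build GRCm38.p6, each 250 bases before and 50 bases after a transcription start, were found for 28 of the 37 genes, and none was found for Mx1, Mx2, Oas2, Usp18, Iigp1, Rtp4, Zbp1, Dhx58 and Parp14. The core of the ISRE was searched as GAAANNGAAA and the GAS as TTCNNNGAA, on both strands, with overlapping matches counted apart, and N is any base. The 28 genes have 36 promoters, of which 18 (50%) held the ISRE core, in 17 of the genes, where 3.44% of 32851 promoters held it. The GAS was in 9 of the 36 (25%), in 9 of the genes, where 8.3% of all promoters held it. A match is a description of the letters and not a bound site.

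The 160 bases before the start are shown for Oas1a, Bst2 and Gbp2, which were called higher at 24 h. They are also shown for Ifit1, Ifit3 and Rsad2, which were not called. All were chosen among promoters that hold the ISRE core, and Gbp2 lost its call without exposed array 3 of 24 h. ISRE core matches of either strand are in capitals, and each sequence is given 5′ to 3′ on the strand of its gene.
Oas1a, chr5:120907526-120907685, - strand: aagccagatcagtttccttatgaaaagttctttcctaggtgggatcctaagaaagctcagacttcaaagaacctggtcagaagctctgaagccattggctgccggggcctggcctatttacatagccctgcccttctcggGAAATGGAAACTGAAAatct
Bst2, chr8:71537473-71537632, - strand: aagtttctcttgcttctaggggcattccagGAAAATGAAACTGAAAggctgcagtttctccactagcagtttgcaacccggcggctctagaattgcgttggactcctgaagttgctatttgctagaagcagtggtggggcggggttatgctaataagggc
Gbp2, chr3:142620503-142620662, + strand: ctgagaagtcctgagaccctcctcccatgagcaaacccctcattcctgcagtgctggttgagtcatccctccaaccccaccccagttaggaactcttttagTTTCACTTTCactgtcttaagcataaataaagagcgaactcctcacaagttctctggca
Ifit1, chr19:34640729-34640888, + strand: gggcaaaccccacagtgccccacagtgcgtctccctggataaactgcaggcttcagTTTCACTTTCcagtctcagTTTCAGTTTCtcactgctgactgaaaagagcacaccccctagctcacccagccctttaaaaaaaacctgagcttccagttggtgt
Ifit3, chr19:34583369-34583528, + strand: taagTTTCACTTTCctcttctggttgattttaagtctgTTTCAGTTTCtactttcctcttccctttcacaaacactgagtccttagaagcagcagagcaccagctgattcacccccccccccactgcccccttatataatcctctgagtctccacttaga
Rsad2, chr12:26456453-26456612, - strand: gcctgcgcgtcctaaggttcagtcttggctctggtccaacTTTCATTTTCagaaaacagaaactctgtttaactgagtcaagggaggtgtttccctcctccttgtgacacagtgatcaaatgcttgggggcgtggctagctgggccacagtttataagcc

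Oas1a has 2 overlapping matches from -20 to -5 relative to the start, and Bst2 has 2 from -130 to -115, so that their capitals run together. Gbp2 has 1 match on the opposite strand from -59 to -50. Ifit1 has 2 matches at -104 to -95 and -85 to -76, Ifit3 has 2 at -156 to -147 and -122 to -113, and Rsad2 has 1 at -120 to -111, all on the opposite strand. The core was thus present in genes called higher at 24 h, such as Oas1a (difference 0.61), and in genes without a call at any time, such as Ifit1 (difference 0.08 at 24 h). Ifih1, Ddx58 and Trim30a, called higher at 24 h as well, held the core, while Irf7 and Tap1 had promoters without it. For Mx1, Usp18, Rtp4, Zbp1, Dhx58 and Parp14, the rest of those called higher, no promoter was found. Stat2 and Eif2ak2, lower at most times by the probe sets used, each have 1 match, at -222 to -213 on the opposite strand and at 19 to 28 after the start.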

How the data were processed

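Lung RNA of 60 mice had been hybridised to Affymetrix mouse arrays. The deposited values are on the log2 scale and were summarised per probe set by the authors with RMA (software version not stated). RMA scales arrays to a common distribution, so a level is relative to the other genes of its array, and no value below the background of an array is marked. The number of arrays, 5 per group, limits the precision. Of 45101 probe sets, 64 controls were left out, and 932 with several symbols and 9160 without a symbol entered only the alternative over all probe sets. The 34945 with 1 symbol gave 18193 genes, each read from its probe set with the highest mean.

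Groups were taken from the labels. The 12 groups were fitted in R 4.3.3 with limma 3.58.1 (48 residual degrees of freedom), exposed against sham at each time, with moderated F tests over the times, Benjamini-Hochberg adjustment over all genes at each comparison, a threshold of 0.05 and no fold minimum. The script was tested on simulated data. The genes, the further lists, the roles and the tests were chosen with earlier results of these data known. Levels of every mouse are given for up to 6 genes called at a time, by smallest p, for the 3 largest differences where fewer than 3 were called, and, chosen after their values were seen, for Irf7 and Mx1 at 24 h; other pathway genes were named by smallest p, up to 3 per list and time. Alternatives were other sets of probe sets, a filter on low values, a further normalization, array weights, robust moderation, the replicate number as a block, the arrays of 1 time alone, the methods' test (ANOVA with unequal variances and Tukey's test) and leaving out each array. Promoter sequences are from RefSeq. No slide or scan batch is given in the labels.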

Additional observations from a re-analysis of the deposited data

Results flagged for a closer look

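The effect of exposure differed between times for Isg20 (moderated F test, adjusted p = 0.017) and Oas1a (adjusted p = 0.032). In exposed minus sham, Isg20 was 0.18 at 24 h and -0.34 at 168 h, and Oas1a was 0.61 at 24 h and -0.14 at 48 h. In 3 of 64 groups of 5 arrays looked at, 1 mouse lay far from the others, where chance alone gives about 1 in 20 groups. The mean over the 35 genes at 168 h in exposed mice was 8.49 in array 1 and 8.2 to 8.26 in the others, a gap of 0.777 of the range. Stat2 at 168 h in exposed mice was 6.5 in array 2 and 5.84 to 6.01 in the others, a gap of 0.75 of the range, and that array still lay below the sham mice. Isg20 at 168 h in sham mice was 10.33 in array 1 and 10.03 to 10.11 in the others, a gap of 0.734 of the range, and without that array Isg20 was not called at 168 h (adjusted p = 0.11).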

How the results depend on the processing

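Counts of genes called (of 35) moved by more than 1.5 times in these settings, and the cause was not tested except that the arrays of 1 time alone are fewer samples. Shares of all genes are not given for these settings, except above for 24 h without exposed array 3 and 0 h without sham array 1. The counts therefore describe the list alone and are not compared with the other genes. At 0 h, 3 genes were called, against 1 with the mean of each gene's probe sets, 5 after quantile normalization again, 8 with array weights, 1 in the arrays of 0 h alone, and 6 without both arrays that stood apart, a setting chosen after seeing the data. At 6 h, 1 was called, against 2 over all probe sets, 2 with the filter on low values, 2 after quantile normalization again, 2 with array weights and 0 in the arrays of 6 h alone. At 24 h, 16 were called, against 9 with the mean of probe sets and 10 in the arrays of 24 h alone. At 48 h, 5 were called, against 3 over all probe sets, 2 in the arrays of 48 h alone and 3 by the methods' test. The effect differed between times for 2 genes, against 1 over all probe sets, 4 with the filter and 12 with array weights. Leaving out each array in turn gave 1 to 6 genes at 0 h (6 without sham array 1, 1 without sham array 3, 4 or 5 or exposed array 1, 3 or 5), 1 to 2 at 6 h (2 without exposed array 4 or 5), 13 to 19 at 24 h, 3 to 5 at 48 h (3 without sham array 2, 3 or 4 or exposed array 2 or 5), 2 to 3 at 96 h, 2 to 3 at 168 h, 1 to 7 for the effect between times (4 without sham array 2 or exposed array 1 of 24 h, sham array 5 or exposed array 1 of 48 h, or exposed array 5 of 0 h), 19 to 25 for the sham times, 8 to 15 for the exposed times and 17 to 21 for the mean effect. The genes named at a time kept their direction in every alternative. Over genes and alternatives, 467 differences kept their side of the threshold, 49 lost the call and 12 gained it. Single other probe sets could lie the other way, as for Trim30a at 24 h (-0.13), Ddx58 at 0 h (-0.02) and Irf8 at 96 h (-0.14). With the replicate number as a replicate block, 3, 1, 16, 5, 2 and 3 genes were called from 0 to 168 h, as without it, 22 differed among the sham times (24 without it), and no named gene changed its call. The numbers did not pair the mice: same-numbered sham and exposed mice of a time had correlations of deviations from -0.51 to 0.47, over 0.1 in 7 of 30 pairs, and 6 of 60 arrays correlated best with their own number.

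The smallest difference called at a time among the 35 genes was 0.29 on the log2 scale, with 5 mice against 5. Mx1 and Oas3 have overall means under 6, and background is not marked in these values. For 14 genes several probe sets exist, and of these genes Gbp2, Iigp1 and Irf8 alone had the same call in all their probe sets at every time.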
